A study of Homo sapiens with 2 samples.

Results

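The replication-dependent histone genes were followed through a genome-wide list of nucleosome positions from cultured human cells. They were taken as the GENCODE 44 protein-coding genes on chromosomes 1, 6 and 12 with the symbol H2AC, H2BC, H3C or H4C and a number, or H1-1 to H1-6, which gave 69 of the 19970 protein-coding genes on chromosomes 1-22 and X. There were 6 H1, 17 H2A, 18 H2B, 13 H3 and 15 H4 genes, of which 13 lay on chromosome 1, 55 on chromosome 6 and 1 on chromosome 12. Each had a single exon, and the transcripts were 386 to 2224 bp long with a median of 487 bp. The cells were ARPE-19, an established line of retinal pigment epithelium, in normal culture and in interphase, with no treatment and no control arm. Both labelled samples, named as batches 1 and 2, belonged to this 1 group. In MNase-seq, micrococcal nuclease cuts the DNA between nucleosomes, and the protected fragments are sequenced. The deposited list gave 1-bp positions in hg38 without a height, a score or a sample name, so no value had a replicate, no test between groups was possible, and the read depth behind each position is unknown. The list carries no expression values, so the cell type was not checked against markers.

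Replication-dependent histone genes supply the core histones H2A, H2B, H3 and H4, which form the nucleosome's protein core, and the linker histone H1, which binds where DNA enters and leaves it. They are transcribed mainly in S phase, in clusters held in nuclear histone locus bodies, where NPAT gathers. Their messages have no introns and, for the most part, no poly(A) tail: they end just after a short stem-loop, bound by SLBP, where the transcript is cut with the help of the U7 snRNP.

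That stem-loop was searched on the sense strand from 120 bp before to 20 bp after the annotated transcript end. Its 16-base consensus was found in 68 of 69 histone genes, against 2 of 448 other protein-coding genes under 1 kb and 113 of 19970 genes in all, a count that includes the histone genes. There were 10 distinct sequences, and the loop ended a median of 5 bases before the annotated end, with a range of 0 to 18. The 4 most frequent are shown because they lie near the annotated ends, from which the 3′ end counts below are measured. Capitals mark the 4 loop bases. They were carried by 39, 10, 9 and 4 genes in this order, named by 1 gene that holds each.
H1-4 stem-loop: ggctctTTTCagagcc
H4C1 stem-loop: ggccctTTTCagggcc
H1-1 stem-loop: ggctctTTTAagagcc
H4C9 stem-loop: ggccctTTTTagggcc
The gene without a match in this window was H2BC21, whose annotated transcript is the longest of the 69 and runs on past a copy of the most frequent stem-loop that begins 480 bp after its start.

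Promoter motifs were searched on both strands of the 250 bp before the start, and TATAAA on the sense strand of the last 60 bp only. CCAAT was present in 59 of 69 histone promoters, which included all H1, H2A, H2B and H3 genes and 5 of 15 H4 genes, against 34.3% of all genes. TATAAA was present in 39 of 69, against 4.36% of all genes and 14.1% of the other short genes. The octamer ATTTGCAT, known from H2B promoters, was present in 12 of 17 H2A and 14 of 18 H2B genes and in no H1, H3 or H4 gene, against 1.57% of all genes. Where an H2A and an H2B gene diverge from starts 193 to 250 bp apart, both searches cover the DNA between them. A single match there can count for both genes. AAACACA, a box known from H1 promoters, was present in 6 of 6 H1 genes and in no core histone gene, against 3.67% of all genes and 11.2% of the other short genes. A match describes these letters only and says nothing of binding.

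The start gap, taken as 200 bp before to 50 bp after the start, held a listed position in 2 of 69 histone genes, H4C9 at 71 bp and H1-5 at 62 bp before the start. The other 67 genes, 97.1% (exact 95% binomial interval 89.9 to 99.6%), had none, against 82.1% of the 448 other short genes and 85.9% of all genes. Of genes whose start gap has an observed to expected CpG ratio of at least 0.6, 91.3% of all and 92.6% of the short ones had none, both within the interval of the histone genes. The density was 0.131 positions per kb (exact 95% Poisson interval 0.0159 to 0.474) in the histone genes and 0.787 (0.632 to 0.970) in the other short genes. The log2 ratio was -2.59, with a 95% interval of -5.65 to -0.69. With a narrower start gap, from 150 bp before the start to the start, the same 2 positions gave 0.210 per kb and a ratio of -1.74 (-4.83 to 0.19), which includes 0. All intervals here and below cover counting error only, and genes are not replicates. Windows of neighbouring histone genes can share bases, so shares over genes count some stretches more than once and their intervals are too narrow.

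The promoter sequences of the 2 genes with a position in the start gap are printed as the exceptions, and were chosen after their values were seen. They run from 150 bp to 1 bp before the start in hg38. Capitals mark CCAAT on either strand and, in H1-5, also AAACACA.
H4C9 chr6:27139132-27139281, plus strand: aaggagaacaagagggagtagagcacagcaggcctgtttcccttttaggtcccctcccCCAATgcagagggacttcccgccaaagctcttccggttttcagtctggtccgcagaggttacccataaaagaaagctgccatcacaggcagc
H1-5 chr6:27867589-27867738, minus strand: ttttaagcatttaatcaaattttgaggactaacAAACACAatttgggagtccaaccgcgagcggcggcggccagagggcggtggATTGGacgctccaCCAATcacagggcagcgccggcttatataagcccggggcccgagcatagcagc
H4C9 encodes an H4 core histone and H1-5 a linker histone. H4C9 had no other position within 1000 bp of its transcript. H1-5 had 4, which placed it among the histone genes with the most.

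Inside the genes, from 51 bp after the start to 51 bp before the end, 12 positions fell in 29.1 kb, or 0.412 per kb (0.213 to 0.720). They lay in 10 genes, and 59 of 69 (85.5%) had none, against 57.4% of the other short genes, whose bodies are longer. Per kb, the other short genes held 1.20, and the log2 ratio of histone to other short genes was -1.54 (-2.50 to -0.71). Within the histone genes the log2 ratio of start gap to body was -1.65. Its interval of -4.85 to 0.52 includes 0, so a dip at the start within these genes was not detectable at this number of positions.

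The 3′ end, from 50 bp before to 200 bp after the transcript end, held 4 positions, or 0.234 per kb (0.0638 to 0.599), against 0.725 in the other short genes, a log2 ratio of -1.63 (-3.54 to -0.22). That interval came to include 0 with spans from the gene records, at -1.01 (-2.50 to 0.18), without the histone genes with mostly repeated bodies, at -1.40 (-3.31 to 0.0092), without chromosome 6, at -1.28 (-6.60 to 1.24), and against the other short genes on chromosomes 1, 6 and 12, at -1.35 (-3.45 to 0.41). Of the histone genes, 65 of 69 (94.2%) had no position there, against 84.8% of the other short genes and 80.6% of all genes. The 4 were at H2BC21, H2BC10, H1-5 and H2AC17. That of H2BC21 lay 2355 bp after its start, 131 bp past its annotated end, whereas its stem-loop copy begins at 480 bp. Around the stem-loops themselves, 4 positions lay within 100 bp, next to 4 genes, in 13.7 kb. The ratio of 3′ end to body within the histone genes was -0.82 on the log2 scale (-2.91 to 0.91) and includes 0. In the flanks, out to 1000 bp on either side, 33 positions gave 0.424 per kb (0.292 to 0.595), against 0.817 in the other short genes, a log2 ratio of -0.95 (-1.50 to -0.44). Against the other short genes on chromosomes 1, 6 and 12 the flank ratio was -0.56 (-1.20 to 0.05), which includes 0, and with spans from the gene records it was -0.47 (-0.97 to -0.01).

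**Figure D1:**
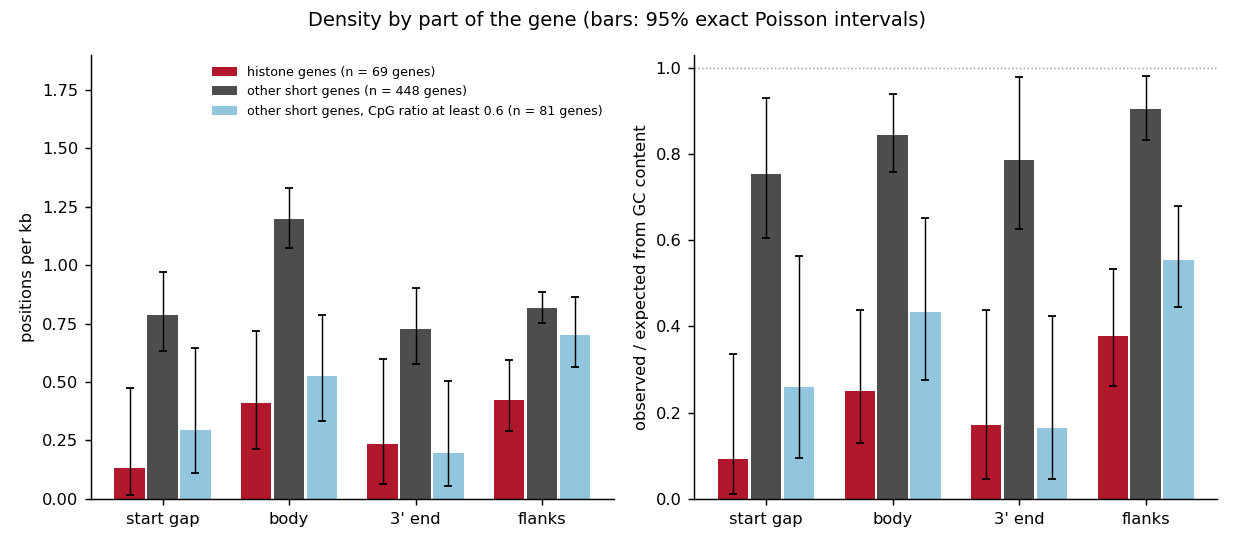
Positions per kb in the start gap, body, 3′ end and flanks of the 69 histone genes and the comparison genes, with exact 95% Poisson intervals. The histone genes run from 0.131 per kb in the start gap to 0.424 in the flanks, below the 448 other short genes in each window, whose values run from 0.725 to 1.20. The 81 short genes with a CpG ratio of at least 0.6 hold 0.296, 0.525, 0.198 and 0.702 in these windows. Their 3′ end value is below the 0.234 of the histone genes.

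The size of the difference depended on which short genes stood beside the histone genes. The other short genes included 169 olfactory receptor and 62 keratin-associated protein genes, and their start gaps had a median observed to expected CpG ratio of 0.212, against 0.781 in the histone genes. Of the 69 histone genes, 53 reach a ratio of 0.6, and all 69 were kept in the ratios below. Among the 81 other short genes with a ratio of at least 0.6, a set chosen after the first values were seen, the densities were 0.296 per kb in the start gap, 0.525 in the body and 0.198 at the 3′ end. The start gaps had a median of 43.6% GC in the histone genes and 62.8% in the 81 short genes. Against these genes the log2 ratio was -1.18 (-4.52 to 1.31) in the start gap, -0.35 (-1.49 to 0.72) in the body and 0.24 (-2.18 to 2.67) at the 3′ end, so that none of these differed beyond counting error and the 3′ end turned in direction. The flanks were lower beside the histone genes, at -0.73 (-1.35 to -0.14). Corrected for GC content, that flank ratio was -0.55 (-1.17 to 0.04). Against the 106 other short genes with at least 55% GC in the start gap the body ratio was -0.64 (-1.71 to 0.33), and -1.01 (-2.09 to -0.04) with the GC correction. The intervals of the other windows against these 106 genes excluded 0. The ratio was -2.85 (-5.97 to -0.84) in the start gap, -2.01 (-3.99 to -0.48) at the 3′ end and -1.28 (-1.86 to -0.73) in the flanks. Whether CpG content has a part in the low counts at the histone genes was not tested.

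Set against the number that the genome-wide density of sequence of the same GC content gives, the histone genes held 0.0928 of it in the start gap, 0.251 in the body, 0.171 at the 3′ end and 0.379 in the flanks. For the other short genes the same values were 0.754, 0.844, 0.787 and 0.905. For the short genes of high CpG ratio they were 0.259, 0.434, 0.165 and 0.553.

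Over the whole window, from 1000 bp before the start to 1000 bp after the end, the histone genes held 51 distinct positions in 139 kb, or 0.367 per kb (0.273 to 0.482). Single genes held 0 to 4. No position was listed for 40 of 69 (58.0%), against 21.0% of the other short genes, whose windows are longer. With a window of equal length, 1000 bp on either side of the start, 45 of 69 (65.2%; 52.8 to 76.3%) had none, against 27.0% of the other short genes and 27.2% of all genes. For all genes with a CpG ratio of at least 0.6 the share was 29.8%. For the 81 short genes of that kind it was 45.7% (34.6 to 57.1%), whose interval overlaps that of the histone genes. For the 53 histone genes with such a ratio it was 69.8% (55.7 to 81.7%), which also overlaps. Over the whole window 64.2% (49.8 to 76.9%) of these 53 had none. The share was 34.6% (24.3 to 46.0%) of the 81, whose windows are longer, and these intervals do not overlap. Neighbouring histone genes share bases and empty stretches, so the intervals of the histone genes are too narrow and this gap is not a test. A position from 1 to 400 bp after the start, where the first nucleosome of the transcribed region is usually mapped, was listed for 7 of 69 histone genes, at 97 to 338 bp with a median of 195 bp. It was listed for 34.6% of the other short genes and 29.7% of all genes, but for 14.8% of the 81 short genes of high CpG ratio and 18.9% of the 106 of high GC content, against 10.1% of the histone genes.

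**Figure D2:**
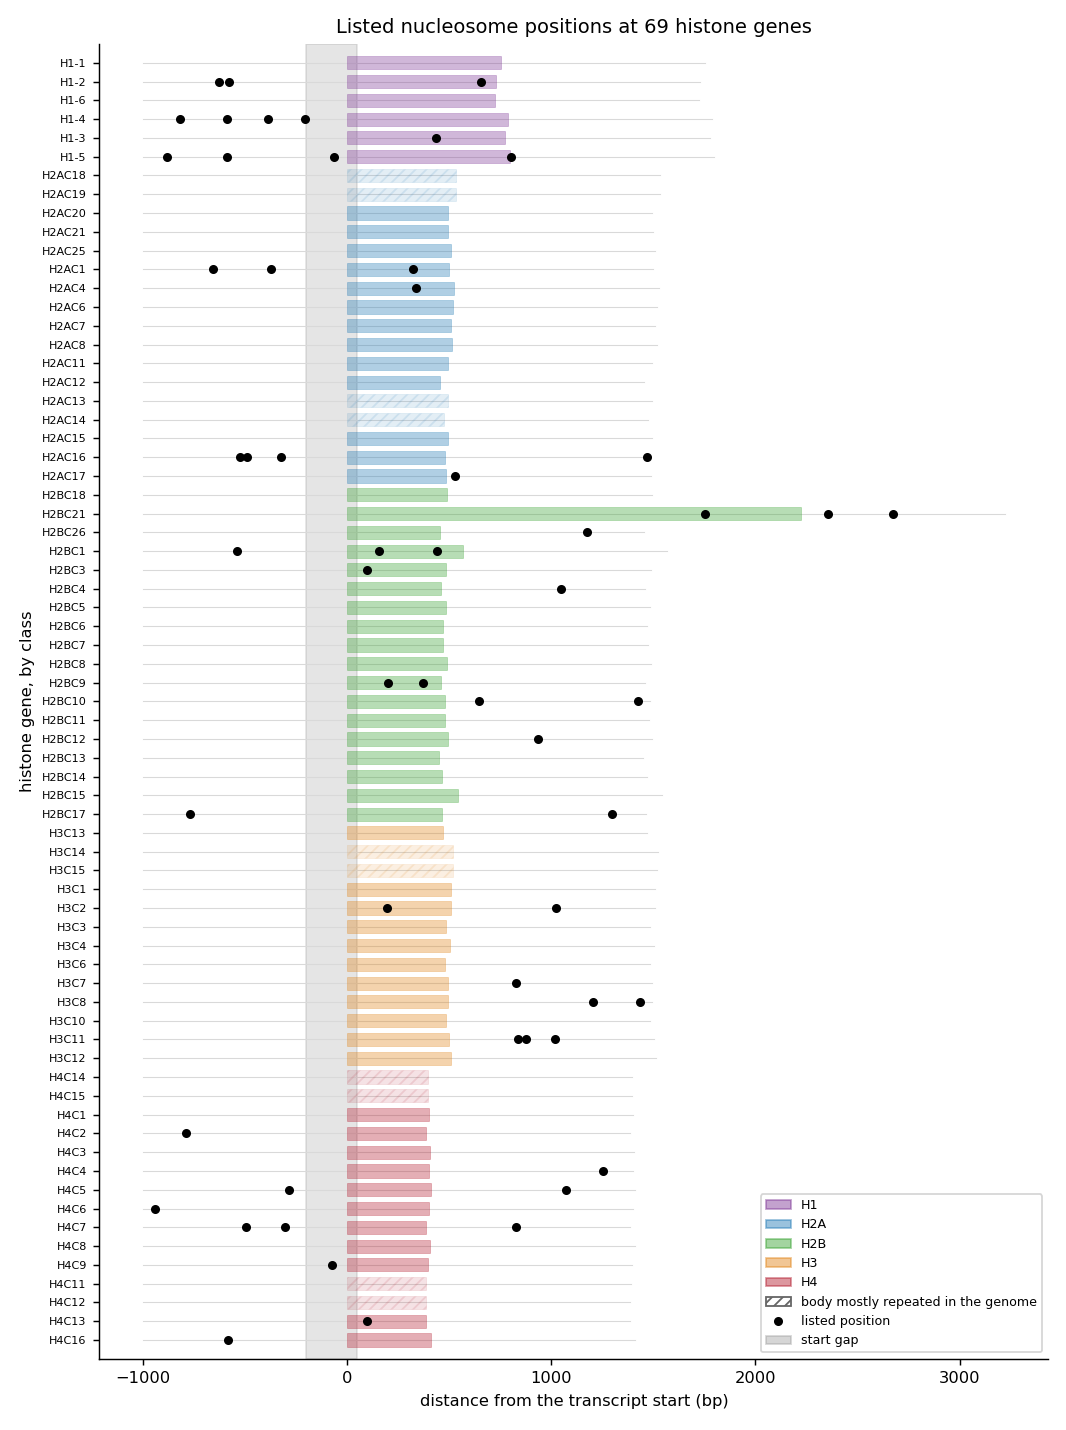
Each listed position around the 69 histone genes by its distance from the start in bp, with 1 row per gene grouped by histone class and the transcript drawn as a bar. Of the rows, 40 hold no position, and the fullest hold 4.

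The distance between the last position before the start and the first after it was a median of 6044 bp over the 69 histone genes. It was 2344.5 bp in the other short genes, 3753 bp in those with a high CpG ratio and 2424 bp in all genes. This measure was chosen after counts were seen, and neighbouring histone genes often lie in the same empty stretch. H2AC19, H3C15 and H4C15 on chromosome 1 shared 1 of 32301 bp. The shortest, 694 bp, surrounded H2AC1 and H2BC1.

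The linker histone genes carried the most positions for their number: 12 over 6 genes. H1-4 (chr6:26156329-26157115, plus strand), a linker histone expressed in most tissues, had 4, at 818, 585, 387 and 203 bp before its start. These were 233, 198 and 184 bp apart, and none lay in its transcript. H1-5 (chr6:27866792-27867588, minus strand) had positions 883, 585 and 62 bp before the start and 6 bp past the end. H1-2 (chr6:26055740-26056470, minus strand) had 626 and 575 bp before the start and 658 bp after it. Its upstream positions were only 51 bp apart, and H2AC16 and H3C11 had positions 34 and 40 bp apart. Such close positions were counted as separate. With positions closer than 100 bp merged, the flanks of the histone genes held 30 positions, or 0.385 per kb. H1-3 had a single position in its body, 438 bp after the start. H1-1 had none, and neither did H1-6, the testis-specific H1. The flanks of the H1 genes held 0.833 per kb (0.360 to 1.64), against 0.234 (0.0860 to 0.510) for H2A, 0.278 (0.120 to 0.547) for H2B, 0.337 (0.135 to 0.693) for H3 and 0.375 (0.171 to 0.712) for H4. The interval of the H1 genes overlapped each of the others.

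Of the 17 H2A genes, none had a position in the start gap, where a count of 0 allows up to 0.706 per kb, and H2AC1 and H2AC4 had 1 each in the body, 325 and 338 bp after the start. H2AC16 (chr6:27865317-27865798, plus strand) had the most, with 524, 490 and 322 bp before its start and 988 bp past its end. That last position, at 27866786, is also the one just past the end of H1-5, its neighbour. Of the 18 H2B genes, none had a position in the start gap, which allows up to 0.667 per kb. The H2B bodies held 6 positions, at H2BC1, H2BC3, H2BC9 and H2BC21, or 0.693 per kb (0.254 to 1.51), the highest value of the 5 classes, with an interval that overlapped all the others. H2BC9 had 2, at 202 and 373 bp. The body position of H2BC21, at 1755 bp, lay after its coding sequence, in the part of the transcript past the stem-loop.

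Of the 13 H3 genes, H3C2 alone had a position in its body, 195 bp after the start, and none had one in the start gap or at the 3′ end. A count of 0 in either window allows up to 0.923 per kb. H3C11 (chr6:27871845-27872346, minus strand) had 3, all in the flank 336 to 516 bp past its end. Of the 15 H4 genes, H4C13 had 1 in its body, 97 bp after the start, and H4C9 had the 1 in the start gap. H4C7 (chr6:26246611-26246996, minus strand) had 3 in its flanks, 493 and 302 bp before the start and 440 bp past the end. H4C16, the member on chromosome 12 (chr12:14770720-14771131, minus strand), had 1, 580 bp before the start.

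The coding sequence at the first body position of each class, in coordinate order, is printed to show where in these small proteins' genes the listed base lies. Sequences are in hg38 on the gene's strand, at most 150 bases and kept within the coding sequence. Capitals mark the 11 bases centred on the position.
H1-2 chr6:26055787-26055887: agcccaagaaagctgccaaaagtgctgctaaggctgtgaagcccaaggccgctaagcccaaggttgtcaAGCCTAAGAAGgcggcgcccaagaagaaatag
H2AC1 chr6:25726163-25726312: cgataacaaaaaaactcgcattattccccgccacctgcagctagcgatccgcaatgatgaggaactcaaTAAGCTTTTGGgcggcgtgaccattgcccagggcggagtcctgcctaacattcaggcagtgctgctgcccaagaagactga
H2BC1 chr6:25726909-25727007: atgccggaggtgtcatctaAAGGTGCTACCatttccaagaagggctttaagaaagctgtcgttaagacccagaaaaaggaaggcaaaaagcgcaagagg
H3C2 chr6:26031830-26031979: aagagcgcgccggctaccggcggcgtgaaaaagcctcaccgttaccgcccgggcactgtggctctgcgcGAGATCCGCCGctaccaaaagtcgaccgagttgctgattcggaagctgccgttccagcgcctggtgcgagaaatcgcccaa
H4C13 chr6:27873363-27873510: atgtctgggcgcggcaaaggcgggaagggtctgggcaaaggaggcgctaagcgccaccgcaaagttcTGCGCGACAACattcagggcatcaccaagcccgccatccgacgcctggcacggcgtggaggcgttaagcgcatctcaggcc
The listed base in H1-2 lies near the stop codon, in the part that encodes the lysine-rich tail of the linker histone. Those in H2BC1 and H4C13 lie near the start codon. Whether a listed base marks the centre or an edge of a nucleosome is not given in the sources used here. The coding sequence that a nucleosome would cover is therefore not known. The printed stretches had 46.5% GC in H2BC1, 53.3% in H2AC1, 54.5% in H1-2, 64.0% in H3C2 and 64.9% in H4C13.

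H2AC1 and H2BC1 are a divergent pair of testis-specific histone genes, at chr6:25726063-25727345. They shared 3 positions, of which 1 lay in the body of H2AC1 and 2, at 157 and 440 bp, in the body of H2BC1, in 0.869 kb. None lay in the 214 bp between their starts. The pair was singled out after its values were seen, and 3 positions do not allow a comparison with the other genes.

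In all, 13 pairs of histone genes diverged from starts under 1000 bp apart, and 12 of them joined an H2A with an H2B gene. The starts were 193 to 978 bp apart, with a median of 239 bp. No position lay between the starts in 13 of 13 pairs, which covered 3.77 kb. Among 486 other divergent pairs of protein-coding genes of the same distance range, a comparison added after the counts were seen, 73.3% had none and the density was 0.712 per kb. The starts of these other pairs were farther apart, at a median of 367.5 bp, so the 2 shares rest on unlike lengths. The count of 0 in the histone pairs allows up to 0.796 per kb, so a lower density than in other pairs was not detectable. The shortest of these shared promoters, between H2AC15 and H2BC15, is printed on the plus strand with CCAAT on either strand in capitals. Transcription leaves it in both directions.
H2AC15 and H2BC15 chr6:27838376-27838568: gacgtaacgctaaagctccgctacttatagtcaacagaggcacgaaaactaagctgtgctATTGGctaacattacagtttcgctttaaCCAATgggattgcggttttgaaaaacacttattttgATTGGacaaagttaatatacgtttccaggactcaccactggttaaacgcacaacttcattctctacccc
The next shortest were the 214 bp of H2AC1 and H2BC1 and the 222 bp of H2AC7 and H2BC7.

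Histone genes under 100 kb apart formed 6 clusters of 2 or more genes, and H4C16 stood alone. Between the genes of a cluster, 191 positions in 391 kb gave 0.489 per kb (0.422 to 0.563), which is 0.488 of the GC expectation. The cluster from H1-1 to H4C8 (chr6:26017032-26285534, 32 genes) held 0.510 per kb (0.428 to 0.603) over its whole length, against 0.847 in the 500 kb on either side. The cluster from H2BC13 to H2BC17 (chr6:27807479-27893891, 16 genes) held 0.544 (0.40 to 0.723) against 0.692, and that from H2BC11 to H2AC12 (chr6:27132316-27147562, 5 genes) 0.394 (0.144 to 0.857) against 0.539, so that both intervals hold the level of the surroundings. The pair H2AC1 and H2BC1 went the other way, with 3 positions in 1.28 kb, or 2.34 per kb (0.482 to 6.83), against 0.769. The pair H2AC25 and H2BC26 on chromosome 1 held 0 in 1.20 kb. The cluster from H2BC18 to H2AC21 (chr1:149811879-149887965, 11 genes) held 0.210 (0.120 to 0.341), in surroundings that were also sparse, at 0.442. Chromosomes 1 and 6 carried 0.912 and 0.765 per kb.

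**Figure D3:**
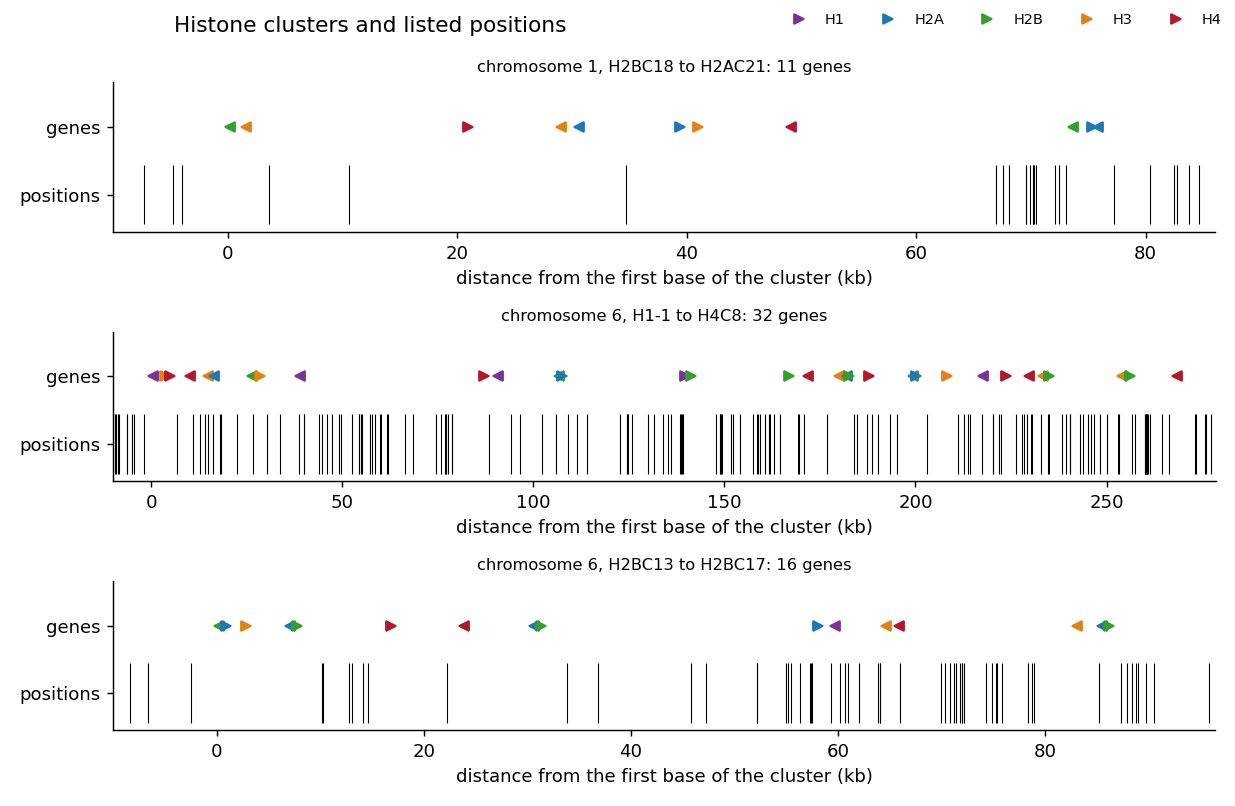
Listed positions along the histone gene clusters of 11, 32 and 16 genes, by distance from the cluster's first base in kb, with the genes marked. The chromosome 1 cluster holds 0.210 positions per kb, and those shown on chromosome 6 hold 0.510 and 0.544.

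Positions were sparser near the histone genes than 50 to 100 kb away. The ratio of observed to GC-expected positions was 0.202 (0.104 to 0.352) inside the transcripts, 0.182 (0.0669 to 0.397) up to 200 bp away, 0.379 (0.261 to 0.532) from there to 1 kb, and 0.517 (0.428 to 0.620) from 1 to 5 kb. It was 0.639 from 5 to 10 kb, 0.746 from 10 to 20 kb, 0.794 from 20 to 50 kb and 0.892 (0.824 to 0.965) from 50 to 100 kb. The order of the middle bins depended on the genes included. Without those with mostly repeated bodies the ratio was 0.679 from 5 to 10 kb and 0.655 from 10 to 20 kb. Without chromosome 1 the ratio kept its order, at 0.705, 0.709 and 0.769 from 5 to 10, 10 to 20 and 20 to 50 kb. The densities in these bins, not corrected for GC content, were 0.685, 0.643 and 0.667 per kb. Around the other short genes the ratio stayed between 0.784 and 0.905 in every bin. Around the 81 short genes of high CpG ratio it was also lowest close by, with 0.433 inside and 0.158 up to 200 bp away, 0.553 up to 1 kb, 0.595 from 1 to 5 kb and 0.753 from 50 to 100 kb. The intervals of the histone genes and of these 81 genes overlapped in each bin up to 50 kb. The bins were chosen after the cluster values were seen.

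**Figure D4:**
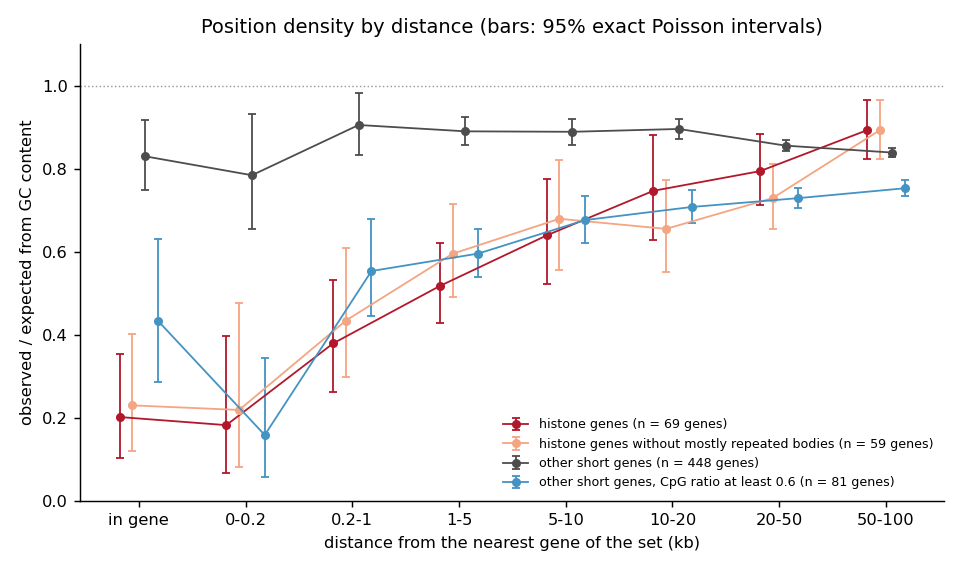
Ratio of observed to GC-expected positions by distance in kb from the nearest gene of each set, with exact 95% Poisson intervals. Around the histone genes it is 0.202 inside the transcripts and 0.892 at 50 to 100 kb, with intervals that overlap those of the short genes of high CpG ratio up to 50 kb away.

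Some histone genes repeat the sequence of another, and reads in such stretches can match several places. At least 1 repeated 100-base word was found in the body of 18 of 69 histone genes (26.1%) and of 112 of 448 other short genes (25%). In 10 of 69 (14.5%), against 46 of 448 (10.3%), over 50% of the 100-base words of the body occur elsewhere in hg38: H4C14, H3C14, H2AC18, H2AC19, H3C15 and H4C15 on chromosome 1, and H2AC13, H2AC14, H4C11 and H4C12 on chromosome 6. These 10 had no position anywhere in their windows, against 30 of the 59 other histone genes (50.8%). The 10 are not separate cases. H4C14, H3C14 and H2AC18 shared 1 empty stretch of 24120 bp, and H2AC19, H3C15 and H4C15 shared 1 of 32301 bp. H2AC13 and H2AC14 lay in 1 of 12666 bp. Without the 10 genes the body density of the histone genes was 0.471 per kb, and 35 of 59 had no position within 1000 bp of the start. Read length and the treatment of reads with several matches are not given in the sources used here, and the part of repeats in the empty windows was not tested.

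The replication-independent histone genes, which encode variants such as H3.3 and H2A.Z and give polyadenylated messages throughout the cell cycle, were set beside them. Of 12, 9 had no position in the start gap and 5 none within 1000 bp of the start, where the shares over all genes were 85.9% and 27.2%. H3-3A and H3-3B, which both encode H3.3, had none within 1000 bp and lay in empty stretches of 11146 and 10413 bp. Of 15 genes for factors that transcribe and process histone messages, 14 had no position in the start gap and 4 none within 1000 bp, near those shares. NPAT, the coactivator of the histone locus body, had 1, SLBP had none, and LSM10 and LSM11, both of the U7 snRNP, had 2 each. A set of 79 ribosomal protein genes, added after the counts were seen and with its symbol pattern narrowed once since, had no position in the start gap in 73 and none within 1000 bp in 16 (20.3%), with a median empty stretch of 1997 bp.

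Other protein-coding genes that start in or within 10 kb of a histone cluster numbered 3. HFE, the hemochromatosis gene, lies inside the cluster from H1-1 to H4C8 and had no position within 1000 bp of its start. H2AJ, a replication-independent H2A gene next to H4C16, had 1, and the third, which has no symbol, had none. That gene starts at the same base as H2AC7, on the same strand, so its count repeats that of a histone gene.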

How the data were processed

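MNase-seq of ARPE-19 cells was deposited by the authors as 1 list of positions for 2 labelled samples. Per the file headers it holds a chromosome, a start and an end, its name carries hg38, and the submitters' processing notes name Bowtie2 and hg38. The caller, its threshold, read length and any pooling are not given in the sources used here. The deposited values are coordinates, with no count of reads and no score, so depth is unknown. The list held 2634347 rows, of which 4 were repeats and were removed.

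Gene spans came from GENCODE 44 (MANE Select transcript of each histone gene). Every base was counted once per set and window. Densities carry exact 95% Poisson intervals, ratios exact conditional binomial intervals and shares exact binomial intervals, and a count of 0 allows 3 positions. That limit is lower than the upper end of the exact Poisson interval for the same count. For the start gaps of the H2A, H2B and H3 genes this upper end was 0.868, 0.820 and 1.14 per kb. The GC expectation used 2% bins of the 200 bp around each base. The CpG ratio is the observed to expected ratio in the start gap. Python 3.11.15, numpy 2.4.6, pandas 2.3.3, scipy 1.17.1 and pysam 0.24.0 were used. The counting was tested on simulated positions, where the flank density came out slightly low, just outside its interval, and the other values lay within theirs. The simulated densities were far above those of the list, so the intervals were not tested at counts as small as those of the histone genes.

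The genes, lists and comparisons were chosen with earlier results of these data known. Genes were named by rule: the 10 with the most positions, up to 10 with none, those with a position in the start gap, all H1 genes, the chromosome 12 gene, the 3 shortest divergent pairs and those with repeated bodies. Body sequences are those of the first gene of each class, by coordinate, with a body position, and the printed promoters of H4C9 and H1-5, and other genes named for their body positions, fall outside the rule and were chosen after their values were seen. Alternatives included merged positions, other gene spans and windows, other short-gene sets and leaving out a chromosome.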

Additional observations from a re-analysis of the deposited data

How the results depend on the processing

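Of 102 alternative values for 14 results, 81 stayed within the interval of the value reported, 11 lay outside it, 9 kept their direction with an interval that came to include 0, and 1 whose interval had excluded 0 changed sign. Without chromosome 6, which leaves 14 histone genes, the densities were 0 per kb in the start gap, 0.142 in the body, 0.207 in the flanks and 0.214 between cluster genes. The shares without a position were then 100% in the start gap and 92.9% in the body, the log2 ratio of 3′ end to body turned from -0.82 to 1.08 (-5.22 to 7.37), both intervals including 0, and the log2 ratios to other short genes were -3.08 in the body, -1.28 at the 3′ end, which came to include 0, and -1.98 in the flanks. The start gap ratios had no value there. Between neighbours under 10 kb apart the density was 0.350 per kb. With spans from gene records, 69.6% had no position in the body. The log2 body ratio was -0.64 (-1.71 to 0.33) against short genes of at least 55% GC (-1.01, -2.09 to -0.04, with the GC correction). Against those of a CpG ratio of at least 0.6 it was -0.35, the start gap ratio was -1.18 and the 3′ end ratio reversed to 0.24. The start gap ratio was -1.74 with a narrower gap. The 3′ end ratio was -1.01 with gene records, -1.40 without mostly repeated bodies and -1.35 against short genes on chromosomes 1, 6 and 12, where the flank ratio was -0.56, and each of these 5 intervals included 0. The set of high CpG ratio was chosen after seeing the data. The cause was not tested. Leaving out a batch could not be run because the list names no sample. No paired analysis was possible because there is 1 group. With 2 to 33 positions per window of the histone genes, the count limits what can be told apart.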
